A study of Mus musculus with 8 samples.

Results

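The AP-2 transcription factor genes and 2 regulators of the trophoblast, *Gata3* and *Elf5*, were followed in E14Tg2A.4 mouse embryonic stem (ES) cells treated with retinoic acid (RA). Members were chosen by name, with earlier results of these data known. All probes that are not controls and carry the name of *Gata3*, *Elf5* or 1 of the 5 AP-2 genes were taken, which gave 8 probes for 7 genes out of 55681 probes for 36406 names on the array. The array writes the AP-2 genes under the older symbol *Tcfap2*, and the current symbol is *Tfap2*. RNA came from 4 cultures of untreated ES cells and from 4 cultures that had received RA for 72 h, described as biological replicates, and each RNA was hybridized to an array of its own with 1 dye. Both groups are the same unmodified line, so neither carries a transgene or a knockdown, and all 8 arrays were used. By the methods of the study the medium of RA-treated cells lacked leukemia inhibitory factor (LIF), which keeps ES cells self-renewing, and the medium of untreated cells is not given in the sources used here, so RA and a loss of LIF cannot be told apart.

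AP-2 proteins bind DNA as dimers through a helix-span-helix domain at GC-rich palindromes, and the family is known for roles in neural crest, face, limb, skin and kidney. AP-2γ, the product of *Tcfap2c*, is also a regulator of trophoblast stem cells and of primordial germ cells. In the early embryo AP-2γ, Gata3 and the ETS factor Elf5 are part of the network of genes that sets up and maintains the trophoblast, the lineage that forms the embryonic part of the placenta, whereas ES cells derive from the inner cell mass.

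The members went in different directions. *Tcfap2b*, *Gata3* and *Elf5* rose in RA-treated cells, *Tcfap2c* and *Tcfap2e* fell, and *Tcfap2a* and *Tcfap2d* did not pass the test, taking for each gene the probe that was brightest on average. By gene 3 of 7 were called higher and 2 of 7 lower, when 13.9% and 22.1% of all names were, 36.1% in either direction. By probe 4 of 8 were called higher and 2 lower, the fourth higher probe being the second probe of *Tcfap2a*, and over all probes the shares were 12.9% higher, 21.6% lower and 34.6% in either direction. These 6 probes are also the ones whose groups did not overlap, 4 with the RA-treated arrays on top and 2 with them below, as seen for 13.9% and 23.8% of all probes and 37.7% in all. A probe was called where limma gave an adjusted p under 0.05 over all probes and a fold change above 1.5. All values below are log2 intensities relative to the 75th percentile of the array, and a difference is the RA-treated mean minus the untreated mean.

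**Figure D1:**
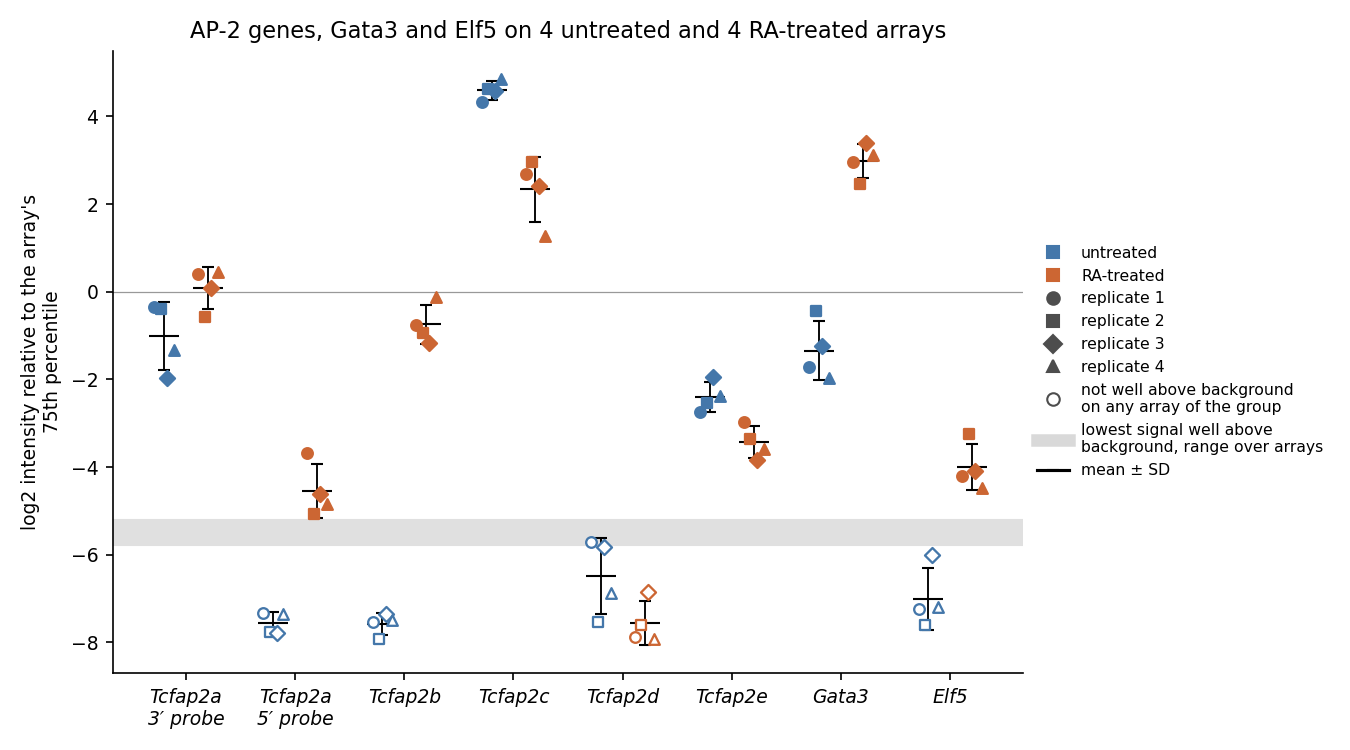
Log2 intensity relative to the 75th percentile of the array (y axis) for the 8 member probes (x axis) on 4 untreated and 4 RA-treated arrays, with a marker shape per replicate number, open markers for a group without any array well above background, black bars for the mean ± SD and a gray band for the range over arrays of the lowest signal that was well above background. *Tcfap2b*, *Gata3*, *Elf5* and the 5′ probe of *Tcfap2a* lie higher after RA on all 4 arrays, *Tcfap2c* and *Tcfap2e* lie lower on all 4, and the groups overlap for the 3′ probe of *Tcfap2a* and for *Tcfap2d*.

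*Tcfap2c* was bright in untreated ES cells and fell with RA. Its probe lies at chr2:172383860-172383919 on the plus strand of mm9, the build of the scanner output. The log2 values were 4.33, 4.62, 4.58 and 4.85 in untreated replicates 1 to 4 and 2.68, 2.97, 2.41 and 1.26 in RA-treated replicates 1 to 4. All RA-treated arrays lay below all untreated arrays, and RA-treated replicate 4 was the lowest. The means were 4.59 ± 0.21 (SD, n = 4) and 2.33 ± 0.75 (SD, n = 4), a difference of -2.26 with an SE of 0.34, or 4.80-fold lower (95% confidence interval 2.79 to 8.24, adjusted p = 0.000869 by limma). The probe stayed well above background on all 8 arrays, so the transcript was lower but still measured in RA-treated cells.

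*Gata3*, a zinc finger factor of trophoblast, T cells and several epithelia, moved the other way. Its probe at chr2:9779551-9779610 on the minus strand read -1.71, -0.45, -1.24 and -1.97 in untreated replicates 1 to 4 and 2.96, 2.46, 3.40 and 3.12 after RA. No RA-treated array came near the untreated range, and the untreated arrays were the more spread out, with an SD of 0.67 against 0.39. The mean difference of 4.33 with an SE of 0.34 is a 20.1-fold increase (95% confidence interval 11.7 to 34.5, adjusted p = 2.61e-05 by limma), measured on both sides since all 8 arrays were well above background. The promoter of *Gata3* is shown because it alone among the member windows read holds a consensus sequence for AP-2, given in capitals.

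Gata3 (chr2:9878601-9878850, minus strand, GRCm38.p6): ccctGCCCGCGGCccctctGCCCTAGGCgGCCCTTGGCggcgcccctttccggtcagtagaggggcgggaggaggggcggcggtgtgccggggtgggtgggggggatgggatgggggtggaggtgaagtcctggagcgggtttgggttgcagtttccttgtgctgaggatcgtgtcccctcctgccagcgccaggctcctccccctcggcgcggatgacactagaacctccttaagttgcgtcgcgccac

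The RefSeq promoter windows run from 250 bases before a transcript start to 50 bases after it, and 10 such windows were given for 6 member genes. *Tfap2c* was not among them. Some genes have several windows, so the 10 are not separate promoters. The *Tfap2d* windows that start at chr1:19102772 and chr1:19102786 overlap. The AP-2 consensus GCCNNNGGC, which reads the same on both strands, has 3 matches in the *Gata3* window, GCCCGCGGC at position -246 from the transcript start, GCCCTAGGC at -231 and GCCCTTGGC at -221, with no overlap. It has no match in the other 9 member windows, and 16.6% of all 32851 windows hold a match. The window is also rich in G and C, 67.3% against a median of 52.7% over all windows, and holds 22 CpG dinucleotides against a median of 7. A match describes the letters in the window and not a bound site.

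*Elf5* is an ETS factor that in the early embryo is restricted to the trophoblast and later acts in lactating mammary epithelium. On the probe at chr2:103290958-103291017 of the plus strand untreated replicates 1 to 4 read -7.25, -7.60, -6.00 and -7.20, and none was well above background. RA-treated replicates 1 to 4 read -4.20, -3.25, -4.08 and -4.48, all well above background and all above the untreated arrays. Against the lowest signal that the scanner software counts as well above background on each untreated array, *Elf5* stood at least 2.70-fold higher with RA (limma, adjusted p = 0.000325). The measured difference was 3.01 with an SE of 0.38, and it is not a fold change of the transcript because the untreated level is unknown. With a background correction that compresses low signals (normexp) the difference was 0.54, below the bound, and *Elf5* was no longer called. RefSeq gives 2 windows for *Elf5*, and the upstream part of the one with a match to a TEAD core sequence is shown next beside that of *Tcfap2b*, since these genes went from dim to measured together. Both are on the plus strand of GRCm38.p6, and capitals mark CATTCC, the core bound by TEAD factors, which the other *Elf5* window (chr2:103423818-103424067 upstream of the start) and that of *Tfap2b* do not hold.

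Elf5 (chr2:103411848-103412097): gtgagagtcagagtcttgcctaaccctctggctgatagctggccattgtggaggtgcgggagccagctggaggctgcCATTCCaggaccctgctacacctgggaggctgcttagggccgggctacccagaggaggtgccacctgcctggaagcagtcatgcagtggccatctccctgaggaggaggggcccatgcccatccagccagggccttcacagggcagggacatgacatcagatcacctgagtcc
Tfap2b (chr1:19211804-19212053): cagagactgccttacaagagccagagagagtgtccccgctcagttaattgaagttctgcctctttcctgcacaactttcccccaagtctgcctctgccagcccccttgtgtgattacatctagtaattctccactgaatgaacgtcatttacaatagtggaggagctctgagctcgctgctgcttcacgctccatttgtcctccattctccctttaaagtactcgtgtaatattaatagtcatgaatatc

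CATTCC, searched on both strands, is present in 2 of the 10 member windows, this window of *Elf5* and that of *Tfap2e*, and in 14.7% of all windows. AGATAA, a form of the GATA sequence that was also searched on both strands, is in none of the 10 and in 11.2% of all windows. Other forms were not searched, and the *Elf5* sequence shown holds GATA within TGATAG.

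*Tcfap2b* went from dim on every untreated array to clearly measured. AP-2β acts in neural crest, kidney and limb development. On its probe at chr1:19228555-19228614, plus strand, untreated replicates 1 to 4 read -7.53, -7.93, -7.36 and -7.49, none of them well above background, while RA-treated replicates 1 to 4 read -0.77, -0.93, -1.18 and -0.11, all well above it. Against the lowest signal counted as well above background on each untreated array, the rise was at least 25.8-fold (limma, adjusted p = 1.25e-06). The measured means were -7.58 ± 0.24 and -0.75 ± 0.46 (SD, n = 4 each). This pattern, dim on every untreated array and well above background on the 4 RA-treated ones, was shown by *Tcfap2b*, *Elf5* and the 5′ probe of *Tcfap2a*, 3 of the 8 member probes, and by 1.32% of all probes. The bounds hold for the processed signal of the scanner and against that lowest signal. Some probes above it were not counted as well above background, so it is not a strict ceiling. With normexp the measured difference for *Tcfap2b* was 3.24, below its bound, with the call unchanged.

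*Tcfap2d* is the neighbor of *Tcfap2b* on chromosome 1, with its probe at chr1:19138386-19138445, 90169 bases away on the same strand. It read -5.71, -7.53, -5.82 and -6.88 in untreated replicates 1 to 4 and -7.88, -7.60, -6.84 and -7.91 after RA, so that not a single array of the 8 was well above background. The groups overlap, limma gave an adjusted p of 0.0823, and no fold change is given because both levels are unknown. With the replicate number as a block the adjusted p was 0.0497, which still compares signals within the background.

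*Tcfap2e*, the member described in the olfactory bulb, was low and fell further. Its probe at chr4:126393440-126393499 on the minus strand read -2.75, -2.54, -1.96 and -2.39 in untreated replicates 1 to 4 and -2.98, -3.35, -3.83 and -3.59 after RA. The groups do not overlap, but the gap between the lowest untreated and the highest RA-treated array is small. The difference was -1.03 with an SE of 0.24, or 2.04-fold lower (95% confidence interval 1.41 to 2.96, adjusted p = 0.00800 by limma), with all 8 arrays well above background. The call did not hold with normexp followed by quantile normalization or on the log2 values of the authors, both with a difference of -0.53.

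*Tcfap2a*, which acts in neural crest, face and skin, has 2 probes that do not give the same answer. The 3′ probe, at chr13:40811044-40811103 on the minus strand, is annotated to both RefSeq transcripts that the array lists for the gene. It was well above background everywhere and read -0.35, -0.40, -1.97 and -1.33 in untreated replicates 1 to 4 and 0.41, -0.59, 0.10 and 0.45 after RA. RA-treated replicate 2 lies within the untreated range, and the untreated arrays themselves span more than the mean difference of 1.11 (SE 0.40, adjusted p = 0.0567 by limma), so the probe was not called. Between arrays of the same replicate number the difference was 0.76, -0.19, 2.07 and 1.78 for replicates 1 to 4. Leaving out RA-treated replicate 2 gave 1.33 with an adjusted p of 0.035, and leaving out untreated replicate 1 or 2 also brought the probe past the threshold, with 1.32 and 1.31.

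The 5′ probe of *Tcfap2a*, at chr13:40829040-40829099, starts 17996 bases upstream in the genome and is annotated to only 1 of these RefSeq transcripts. The names 5′ and 3′ rest on the positions of the probes on the minus strand and on these annotations, and transcript models were not used here. Its sequence is shown because the probe separates the annotated transcripts, with the ATG triplets in capitals.

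Tcfap2a 5′ probe (60 bases, minus strand of mm9): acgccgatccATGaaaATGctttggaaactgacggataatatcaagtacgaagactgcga

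On this probe untreated replicates 1 to 4 read -7.34, -7.77, -7.79 and -7.35, with none well above background, and RA-treated replicates 1 to 4 read -3.68, -5.06, -4.61 and -4.84, with all of them well above it. Against the lowest signal counted as well above background on each untreated array, the rise was at least 1.85-fold (limma, adjusted p = 7.73e-05). The measured difference was 3.02 with an SE of 0.30. The bound lies inside the 95% confidence interval of the 3′ probe, 1.15-fold to 4.03-fold, so an unequal change of the transcript forms is not shown. Under normexp the 5′ probe gave 0.56 and was not called, whereas the 3′ probe gave 0.99 and was called (adjusted p = 0.0188). The RNA was labelled from an oligo-dT primer, which starts at the 3′ end of a transcript, and the part of this in the dim signal of the 5′ probe was not tested.

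**Figure D2:**
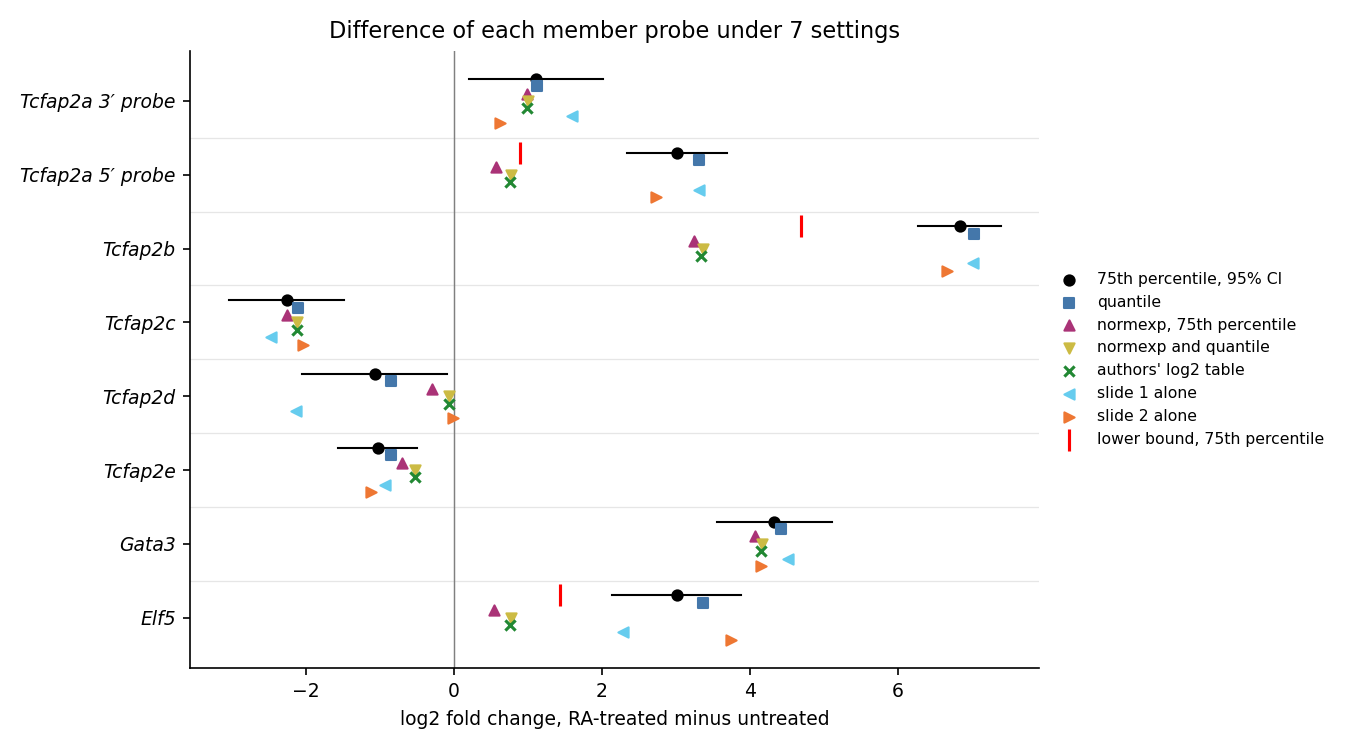
Log2 fold change of RA-treated over untreated cells (x axis) for each member probe (y axis) under 7 settings, with black bars for the 95% confidence interval of the values scaled to the 75th percentile and red ticks for the lower bound where the untreated arrays were dim. *Gata3* stays between 4.07 and 4.52 and *Tcfap2c* between -2.48 and -2.05 in these settings, and the probes that are dim in untreated cells move towards 0 where normexp or the table of the authors is used.

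The arrays lay on 2 slides, with 2 arrays of each group on each. Within slide 1 and within slide 2 the difference was -2.48 and -2.05 for *Tcfap2c*, 4.52 and 4.14 for *Gata3*, and 7.01 and 6.66 for *Tcfap2b*. It was 2.28 and 3.74 for *Elf5*, and 3.31 and 2.73 for the 5′ probe of *Tcfap2a*. These probes were called on each slide alone. For *Tcfap2e* the differences were -0.93 and -1.13 and were called on neither slide, with adjusted p values of 0.177 and 0.0578. The 3′ probe of *Tcfap2a* gave 1.59 and 0.62, also uncalled, and the dim *Tcfap2d* gave -2.13 and -0.02.

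Markers of the cell types that the cultures could hold were read on the same scale, as the sum over the marker genes of the linear level relative to the 75th percentile. Their counts stand beside the 13.9% of all names called higher and the 22.1% called lower. The 5 ES cell markers all fell, from summed levels of 249 to 353 in untreated cells to 8.87 to 32.2 after RA, and the 4 RA response markers all rose, from 2.66 to 3.78 up to 22.9 to 88.3. Those of primitive and visceral endoderm rose for 7 of 7 genes (0.759 to 1.69 against 8.31 to 17.3) and those of fibroblasts for 5 of 6 (1.03 to 1.81 against 26.5 to 47.0). Of 7 trophoblast markers 3 rose, none fell, and the summed level overlapped between the groups (4.42 to 5.83 against 3.06 to 10.4), with *Tpbpa*, a marker of the spongiotrophoblast, well above background on no array. In untreated cells that sum was mostly *Ascl2*, and without this gene the groups did not overlap (0.386 to 0.554 against 2.01 to 5.71). Of 5 neural markers 1 rose and 2 fell, with sums of 5.99 to 9.56 against 10.3 to 11.8, or 4.29 to 7.58 against 1.48 to 2.22 without the brightest, *Nes*. None of 3 surface ectoderm markers was called, with 2.97 to 18.4 against 7.52 to 16.2, a sum that was nearly all *Trp63* (0.137 to 0.589 against 0.128 to 0.340 without it). RA-treated replicate 2 kept the highest ES cell marker sum of the RA-treated arrays and RA-treated replicate 4 the lowest. The members did not all follow this order. Replicate 2 had the highest *Tcfap2c* and the lowest *Gata3* and *Tcfap2a* (both probes) of the RA-treated arrays but also the highest *Elf5*, and replicate 4 had the lowest *Tcfap2c* and the highest *Tcfap2b*, whereas *Gata3* was highest in replicate 3 and *Elf5* lowest in replicate 4. The part of these cell types in the values of the members was not tested, and in bulk RNA fewer cells of a type and less RNA per cell cannot be told apart.

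Around the members stand the other genes of the same programs, grouped by role. The lists were chosen with earlier results of these data known and are given as counts and medians. The median log2 fold change was -0.28 over all genes, and it was near 0 (-0.0026 over all probes) when the arrays were quantile normalized, so members and lists are to be read against that shift, and list counts against the 13.9% of all names called higher and the 22.1% called lower.

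Of 13 trophoblast stem cell factors 6 rose, 3 fell and 4 were not called, with a median of 0.48. *Cdx2*, which sets up the trophectoderm, rose by 3.02 on the log2 scale (SE 0.32, adjusted p = 0.000119 by limma), *Gata2* by 3.19 (SE 0.28) and the HLH protein gene *Id2* by 2.81 (SE 0.29). The 3 that fell are also genes of the pluripotent state, *Esrrb* by 5.75 (SE 0.55), *Sox2* by 2.58 and *Klf5* by 2.44, as *Tcfap2c* did. *Eomes*, the T-box factor of the trophoblast, was well above background on all 8 arrays and was not called (0.42, SE 0.68, adjusted p = 0.625), and without RA-treated replicate 2 its difference changed sign. Of 16 later trophoblast and placenta genes 7 were called higher, 1 lower and 8 not called, with a median of 0.12. *Plac1* gave 6.70 with 1 of 4 untreated arrays well above background, *Cited1* 4.59, the bHLH gene *Hand1* 4.35 with 3 of 4 untreated arrays above background, and the imprinted *Peg10* 3.14. With normexp *Plac1* gave 3.87, *Hand1* 2.98 and *Cdx2* 2.22, all still called. Of the 8 later genes not called, *Tpbpa* and *Ctsq* were well above background on no array. *Prl3d1* gave 0.15, *Psg23* -0.09, *Dlx3* -0.12, *Ascl2* -0.68 and *Synb* -0.91. *Syna* gave 0.10 and was well above background on 2 untreated arrays and 1 RA-treated array. The call in the lower direction came from a probe named *Gcm1*, noted after its values were seen (-0.99, adjusted p = 0.0468 by limma, overlapping groups). The array places that probe on chromosome 7, whereas RefSeq has *Gcm1* on chromosome 9, so the value is not taken as that of the gene. Of the 4 probes that carry this name 1 lies on chromosome 9. It was well above background on 2 untreated and 4 RA-treated arrays and was not called (0.79, SE 0.57). Without this gene 7 of 15 rose, none fell and the median was 0.15.

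Of 7 genes for AP-2 cofactors 3 rose, none fell and 4 were not called, with a median of 0.37. *Cited1* and *Cited2*, whose proteins join AP-2 to the coactivator CBP/p300, rose by 4.59 (SE 0.56) and 0.81 (SE 0.24, adjusted p = 0.0245), the latter no longer called when untreated replicate 1 or 3 or RA-treated replicate 1 or 2 was left out, nor within either slide alone (0.72 and 0.90), where 2 of the 7 genes were called higher. The third gene of this family, *Cited4*, was not called (-0.69, SE 0.28, adjusted p = 0.0891 by limma, overlapping groups), but was called lower with normexp (-0.61) and without untreated replicate 1 (-0.92). *Kctd1*, a repressor of AP-2α, gave 4.47 with 1 of 4 untreated arrays well above background, and 2.74 with normexp. Its relative *Kctd15* was bright in both groups and was not called (0.15, adjusted p = 0.433).

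Neural crest genes, where AP-2α and AP-2β act, had the highest list median, 2.69, with 8 of 13 called higher, 1 lower and 4 not called. *Sox9* was dim on every untreated array. Against the lowest signal well above background there, *Sox9* stood at least 37.7-fold higher with RA (limma, adjusted p = 6.42e-06). That is a bound of 5.24 on the log2 scale, and with normexp its difference was 3.52, below the bound. *Pax3* gave 4.19 with 3 of 4 untreated arrays above background and 2.44 with normexp, and *Msx2* gave 3.89. *Foxd3*, a neural crest factor that ES cells also express, fell by 5.92, with 2 of 4 RA-treated arrays above background, and gave -4.16 with normexp. *Sox10*, a later marker of the migrating crest, was not called (0.37, adjusted p = 0.204).

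Of 12 surface ectoderm genes 3 rose, 3 fell and 6 were not called, with a median of -0.23 that is close to that of all genes and a share of falling genes near the 22.1% of all names. The keratins of simple epithelia, *Krt8* and *Krt18*, rose by 5.63 and 5.12. The genes that fell were *Grhl3*, by 2.05, and *Ovol1* and *Krt17*, by 2.05 and 1.91, with *Ovol1* at -0.94 under normexp. Among 8 primordial germ cell genes, a setting in which AP-2γ acts, 5 fell, 1 rose and 2 were not called, with a median of -1.41. *Dppa3* fell by 5.998, *Prdm14* by 5.17, *Prdm1* by 2.50, *Nanos3* by 1.90 and *Kit* by 0.93, and *Ddx4* was 1.82 higher, and with normexp *Dppa3* gave -4.78 and *Prdm14* -4.22. The ES cells themselves express several of these genes.

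Relatives of *Gata3* and *Elf5* were followed as well. Of 8 other GATA and FOG genes 4 rose, 1 fell and 3 were not called, with a median of 0.80. *Gata6*, *Gata2*, the FOG gene *Zfpm1* and *Gata4* rose by 3.28, 3.19, 1.91 and 1.31, all less than the 4.33 of *Gata3* on the log2 scale, a difference between genes that was not tested, and *Gata1* fell by 1.60. Of 6 other ELF and ESE genes 3 rose, 2 fell and 1 was not called, with a median of 0.59. *Spdef*, *Elf1* and *Elf2* rose by 1.75, 1.05 and 0.69, with *Spdef* at 1.00 under normexp, and *Elf3* fell by 1.00. *Ehf*, the nearest named gene with a probe on the lower side of *Elf5*, 177 kb away, was named after its values were seen. It read -4.73, -4.10, -5.64 and -5.38 in untreated replicates 1 to 4, well above background on 2 of them, and -6.32, -5.53, -6.54 and -6.96 after RA, well above background on none. Against the RA-treated floor the mean of all 4 untreated arrays, 2 of them not well above background, gave a bound of at least 1.65-fold lower (limma, adjusted p = 0.0240), or 0.72 on the log2 scale, with groups that overlap. The difference was -0.44 with normexp and -0.21 on the values of the authors, both smaller than the bound. The call was lost with quantile normalization, both normexp settings, the values of the authors, each slide alone and 5 of the 8 arrays left out in turn.

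**Figure D3:**
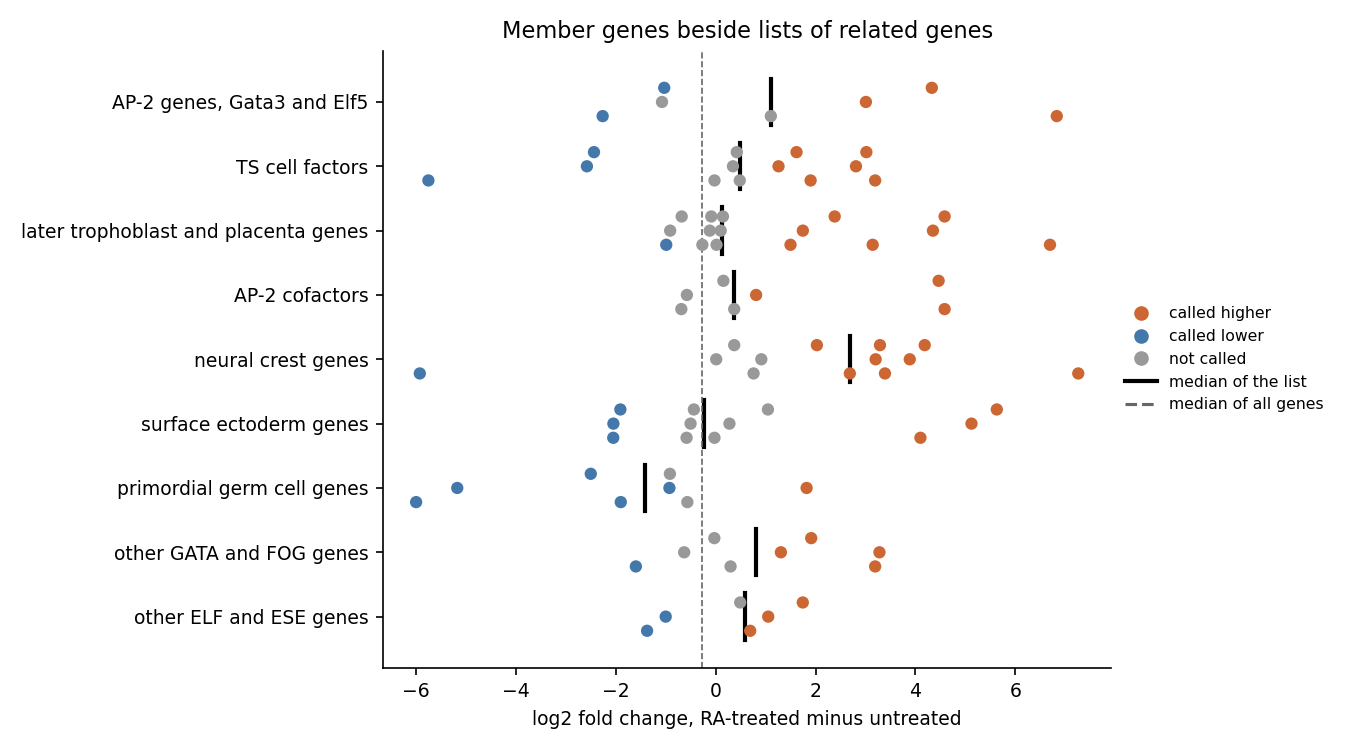
Log2 fold change of RA-treated over untreated cells (x axis) for the 7 member genes and the genes of 8 lists (rows), with a point per gene at its measured value, colors for the call, a black bar for the median of each row and a dashed line for the median of all genes at -0.28. The neural crest list has the highest list median, 2.69, and the primordial germ cell list the lowest, -1.41.

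Genes with the most similar profile were sought among 13893 named genes that were well above background on all 8 arrays, for the 4 members of which the same is true. Likeness was the root mean square difference over the 8 arrays after each profile was centered on its own mean. The nearest to *Tcfap2c* were *Gstm6* (0.16), *Cd79b* (0.22) and *Il17b* (0.22), and the nearest to *Gata3* were *Foxa1* (0.27), *Samd14* (0.31) and *Zfp362* (0.35). *Hoxd13* (0.14), *Hmx3* (0.32) and *Eif2ak2* (0.33) were nearest to *Tcfap2a*, and *Ppp1r14a* (0.17), *Oas1d* (0.20) and *Rps6kl1* (0.20) to *Tcfap2e*. These lists describe 8 arrays that share 1 contrast.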

How the data were processed

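RNA from 4 untreated and 4 RA-treated cultures was hybridized to Agilent 1-colour mouse arrays, and groups and replicate numbers were taken from the labels. The authors deposited the scanner output of Feature Extraction (version 10.7.3.1, positions on mm9), which gives a background-corrected intensity per spot that is not normalized between arrays. A log2 table of the same spots, also from the authors, has a median of 6.76 on each array, and its background correction is not given in the sources used here. It was used as an alternative only, each column matching its own array best.

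In R (version 4.3.3) the log2 processed intensity was taken, the 75th percentile over 59305 non-control spots was subtracted, outlier spots (124 to 145 per array) were left out and spots of a probe averaged. Between 56.7% and 62.7% of spots per array were well above background and none was saturated. limma (version 3.58.1) compared the groups with Benjamini-Hochberg adjustment over 55681 probes. A bound sets the brighter mean against, per array, the higher of the probe's own signal and the lowest signal of a spot well above background. Errors are limited by the number of arrays. The labels number the replicates alike in both groups, and deviations from the group mean over 27508 probes correlated between equal numbers at 0.187, 0.189, 0.104 and 0.152 (replicates 1 to 4), while unequal numbers reached up to 0.142, with 2 unequal pairs above the lowest equal one. All 4 passed the limit of 0.1 set for pairing, but the values printed come from the fit without a block, and the replicate block was an alternative. On simulated data for RA-treated against untreated arrays 157 of 200 probes changed by a log2 value of 2 were recovered among 55640 probes, and 11 unchanged probes were called.

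Genes named are all members, up to 4 called genes per list with the largest difference and no overlap, uncalled list genes with their values, and the 3 genes most like a member. *Sox2*, *Klf5*, *Gcm1*, *Krt17*, *Ovol1*, *Kit*, *Ddx4*, *Gata4*, *Cited4* and *Ehf* were added after their values were seen. The members and lists were chosen with earlier results of these data known. Of 89 list and member probes compared, 1 lay on another chromosome than its RefSeq gene. *Prl2c2* was not matched to a probe and not analysed here. Motifs and figures were made with Python (version 3.11.15) from RefSeq windows of GRCm38.p6. 1 list gene that the rule selects is not reported here. Protein identity between the members was not analysed here. Alternatives were quantile normalization, normexp with an offset of 50, the authors' table, a filter on dim probes, replicate and slide blocks, each slide alone and each array left out.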

Additional observations from a re-analysis of the deposited data

Results flagged for a closer look

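In 3 of 100 groups of 4 arrays examined, over the members and the named genes, an array lay far from the others of its group, when chance alone marks about 1 in 20 groups, or 5. *Cdx2* read -3.26 in untreated replicate 1 and -3.80 to -3.74 in the other untreated arrays. *Sox2* read 2.31 in RA-treated replicate 2 and 1.63 to 1.67 in the other RA-treated arrays, the same replicate that kept the highest sum of ES cell markers. *Klf5* read 4.67 in untreated replicate 4 and 4.21 to 4.27 in the other untreated arrays. No member was among them.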

How the results depend on the processing

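*Gata3*, *Tcfap2b* and *Tcfap2c* kept their direction and call under all alternatives run. Normexp left *Tcfap2a* at 0.99 on the 3′ probe, now called, at 0.56 on the 5′ probe and *Elf5* at 0.54, both no longer called. Normexp with quantile normalization and the authors' values gave -0.53 for *Tcfap2e*, uncalled, leaving 1 member probe and 1 member gene lower, and 6603 and 6583 probes lower on the whole array. Quantile normalization moved the split of all calls from 7196 higher and 12044 lower to 8152 and 8704. The filter on dim probes brought the 3′ probe of *Tcfap2a* (1.11, adjusted p = 0.0367 by limma) past the threshold and removed *Tcfap2d*. Within slide 1 *Tcfap2d* gave -2.13, now called, and *Tcfap2e* -0.93, uncalled, with 4206 probes higher and 6348 lower on the array. Within slide 2 *Tcfap2e* gave -1.13, uncalled, leaving 1 member probe and gene lower, with 3964 and 5453 on the array. With the replicate block *Tcfap2d* gave -1.07, now called (adjusted p = 0.0497), and no other member changed its call. The causes were not tested.

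With each array left out in turn the ranges were 0.79 to 1.33 and 2.73 to 3.19 for the 3′ and 5′ probes of *Tcfap2a*, 6.62 to 6.97 for *Tcfap2b*, -2.47 to -1.91 for *Tcfap2c*, -1.42 to -0.82 for *Tcfap2d* (called without untreated replicate 2), -1.18 to -0.88 for *Tcfap2e*, 4.12 to 4.63 for *Gata3* and 2.76 to 3.35 for *Elf5*. Without untreated replicate 1, untreated replicate 2 or RA-treated replicate 2 the 3′ probe of *Tcfap2a* was called. *Eomes* gave -0.18 without RA-treated replicate 2.

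Counts called lower changed in the lists. For later trophoblast genes 0 were called with the chromosome 9 probe of *Gcm1* (an alternative chosen after seeing the data), with either quantile normalization, the authors' values or either slide, 2 with the filter and 0 to 2 with an array left out. For the ELF and ESE genes 1 was called with quantile normalization, either normexp setting, the authors' values and the filter, 0 on either slide and 1 to 2 with an array left out. The AP-2 cofactors had 1 with normexp and 0 to 1 with an array left out, the GATA genes 0 on either slide, the germ cell genes 3 on slide 2, and ELF and ESE genes called higher were 1 on slide 2.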
